A study of Mus musculus with 22 samples.

Results

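Complement components and regulators made up 7 of the 27179 genes of the count table: C1ra, Masp1, C4b, C3, Cfb, Serping1 and Cd55, each taken by its symbol. The list was chosen by measured values: the Cfb counts of stromal cells cultured alone, where it was among the largest increases in Lama4-deficient cells, with the other members taken for their place in the same system. The difference between Lama4-/- and wild type cells cultured alone is therefore given as a description with no test for all 7. Cfb is not tested against cells cultured alone at all. The other 6 are, where they passed the filter on low counts. They too were chosen with earlier results of these data known, so tests against cells cultured alone are not independent of that choice.

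The libraries are bulk RNA-seq of C57BL/6J mouse bone marrow cells in 6 groups. Mesenchymal stem cells (MSC) from mice of 10 to 14 weeks were expanded from cells sorted as lineage-, CD45-, CD31-, CD44-, SCA1+ and CD51+. They were wild type and cultured alone (WT_MSC, n = 4), Lama4-/- and cultured alone (KO_MSC, n = 4), wild type and sorted from co-culture with leukaemia cells (WT_MSC_AML, n = 5), or Lama4-/- and sorted from co-culture (KO_MSC_AML, n = 3). Lama4 encodes the laminin alpha-4 chain, a basement membrane protein, and every Lama4-/- group lacks it throughout. The leukaemia cells are Lineage-KIT+ bone marrow cells of mice of 10 to 12 weeks that carry the human MLL-AF9 fusion by retroviral transduction, a model of acute myeloid leukaemia (AML). They were sorted as CD45.1+ from co-culture with wild type MSC (WT_AML, n = 3) or with Lama4-/- MSC (KO_AML, n = 3), and their own genotype is labelled wild type in both groups. Co-culture lasted 48 h. Whether replicates came from different mice or cultures is not labelled, so p-values measure only the spread between these libraries, which may be technical.

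Complement is a cascade of plasma proteases and their substrates that marks cells and particles for uptake or lysis. It starts by the classical pathway (C1q with the proteases C1r and C1s, then C4 and C2), by the lectin pathway (lectins with MASP proteases) or by the alternative pathway (factor B with C3), and all of them meet at C3. Most plasma complement comes from the liver, while fibroblast-like cells and myeloid cells are known local sources, and C1 inhibitor and membrane proteins such as CD55 hold the cascade in check.

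Depth ran from 11201751 to 24826876 counts per library. Levels are in CPM: a gene's counts divided by its library's TMM-adjusted total, with TMM run over all 22 libraries. Lama4 itself stood at 201 to 347 CPM in the 9 wild type MSC libraries and at 0 to 1.03 CPM in the 7 Lama4-/- MSC libraries. KO_MSC_AML replicate 3 carries an AML cell label against its title. Its Ptprc (CD45) was 0.515 CPM, against 164 to 205 CPM in AML libraries, and its Col1a1 (a type I collagen) was 17697 CPM, so it was kept with the MSC and values without it are given too. The MSC marker list summed to 17855 to 33959 CPM in MSC libraries, and Cd44 was at 223 to 452 CPM there although the sort was for CD44- cells. Hepatocyte markers (Alb, Apoa1, Ttr) summed to at most 0.376 CPM in any library. The sum of the 5 endothelial markers differed by genotype. It was 0.727 to 5.86 CPM in WT_MSC against 7.65 to 22.5 CPM in KO_MSC. In co-culture it was 1.49 to 4.46 CPM in WT_MSC_AML against 6.69 to 18.9 CPM in KO_MSC_AML. Most of the sum in Lama4-/- MSC was Tek (5.66 to 22.1 CPM). Kdr and Pecam1 did not follow it. Kdr was at 0.214 to 0.384 CPM in KO_MSC_AML against 0.413 to 0.928 CPM in WT_MSC_AML. Pecam1 was at 0.441 to 1.64 CPM against 0.654 to 3.93 CPM in the same groups. Cdh5 was at most 0.221 CPM and Emcn at most 0.182 CPM in MSC. The part of these 5 genes in the members' levels was not tested. WT_MSC replicate 1 stood apart from replicates 2 to 4: the Y-linked Ddx3y was at 0.882 CPM against 55.2 to 61.3 CPM, and a list of 6 proliferation genes summed to 51.4 CPM against 405 to 513 CPM. All 5 WT_MSC_AML libraries had Ddx3y (50.9 to 60.4 CPM) and all 3 KO_MSC_AML libraries had the X-inactivation transcript Xist (370.1 to 472 CPM) with Ddx3y under 1 CPM, so genotype and sex-linked expression cannot be told apart in co-culture. KO_MSC replicates 2 and 4 had Ddx3y (69.8 and 63.0 CPM) with Xist at 2.16 and 3.39 CPM, and replicate 1 had both. Only KO_MSC replicate 3 was like the KO_MSC_AML libraries, with Xist at 297 CPM and Ddx3y at 1.82 CPM. Co-culture and sex-linked expression can thus not be fully told apart in Lama4-/- MSC. In bulk libraries fewer cells of a type and less RNA per cell cannot be told apart either.

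In WT_AML against WT_MSC_AML, 5 of the 6 members other than Cd55 passed the test, all lower in AML cells. The test was the edgeR quasi-likelihood F-test (two-sided, Benjamini-Hochberg adjusted p under 0.05 over all genes tested). Cd55 passed the threshold too, higher in AML cells. It had passed the filter on low counts only through the AML libraries, so it is not counted. Among the lower ones, C1ra and C4b had passed that filter only through the MSC libraries, where they are high, so their differences are descriptions. In that comparison 82.0% of 14133 genes passed (39.1% higher and 42.9% lower in AML cells), so a count of this size is near what the whole table shows. In KO_MSC_AML against WT_MSC_AML none of the 6 members that passed the filter on low counts was called by edgeR, 1 had an unadjusted p under 0.05, and 31.4% of 13710 genes passed (16.9% higher, 14.5% lower). DESeq2 called C3 of 7 there, and 30.6% of all genes. Cd55 passed its threshold too, but it was near 0 in every WT_MSC_AML library and its level rests on the Lama4-/- libraries, so it is not counted. Without KO_MSC_AML replicate 3, edgeR called Cfb, C1ra and Serping1 there, all higher in Lama4-/- MSC, and 32.3% of all genes. Cd55 passed the threshold too. It then passed the filter only through the Lama4-/- libraries, where it is high, so it is not counted. In WT_MSC_AML against WT_MSC none of the 5 members tested was called by edgeR, 3 had an unadjusted p under 0.05, and 0.744% of 13439 genes passed (0.640% higher, 0.104% lower). DESeq2 called C4b, Serping1 and Masp1, and 3.47% of all genes. In KO_MSC_AML against KO_MSC none of the 6 tested was called by edgeR, 3 had an unadjusted p under 0.05, and 0.743% of 13452 genes passed (0.565% higher, 0.178% lower). DESeq2 called Serping1, and 11.7% of all genes. Cd55 passed its threshold too, but it passed the filter on low counts in that comparison only through KO_MSC, where it is high, so it is not counted. In KO_AML against WT_AML edgeR called none of the 5 members tested and DESeq2 none of 7, none had an unadjusted p under 0.05 in edgeR, and 0.0482% of 12444 genes passed (0.00804% higher, 0.0402% lower; 0.109% in DESeq2). Between cultures alone, KO_MSC against WT_MSC, 11.6% of 13344 genes passed (5.24% higher, 6.34% lower), and nothing is read from the members there. The comparisons share libraries: WT_MSC_AML and KO_MSC_AML each serve in more than one of them.

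**Figure D1:**
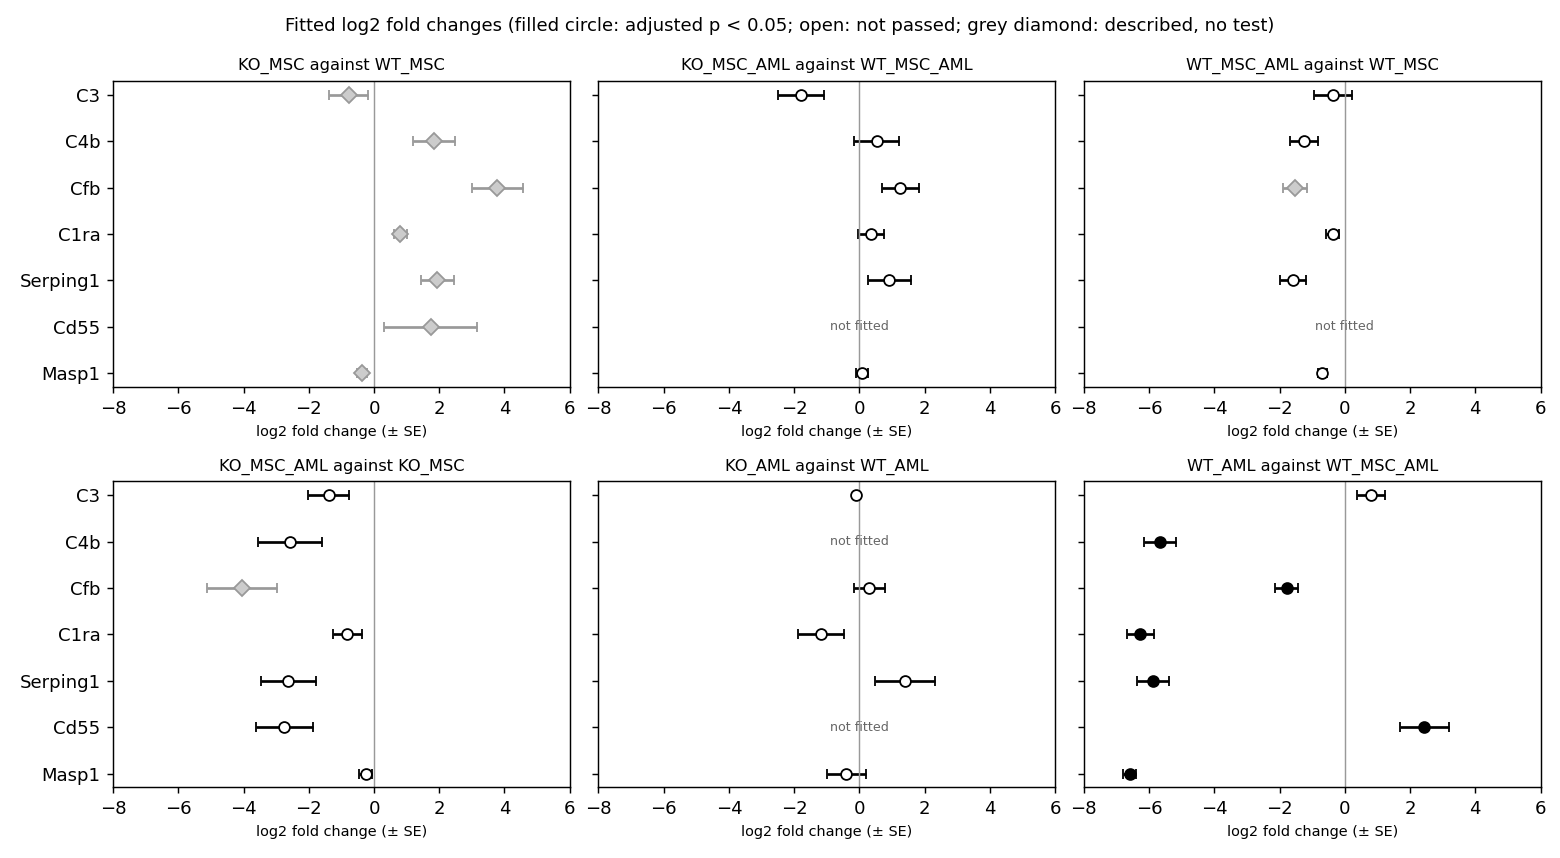
Fitted log2 fold changes of the 7 members (rows) in 6 comparisons (panels), with the SE as bars. Filled circles passed the edgeR threshold, open circles did not, and grey diamonds are described without a test because those libraries chose the list. The 6 filled circles all lie in WT_AML against WT_MSC_AML, 5 of them at -1.78 or lower. The other is Cd55, which passed the filter on low counts only through the AML libraries and is not counted as called. C1ra and C4b passed it only through the MSC libraries, so their differences are descriptions.

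**Figure D2:**
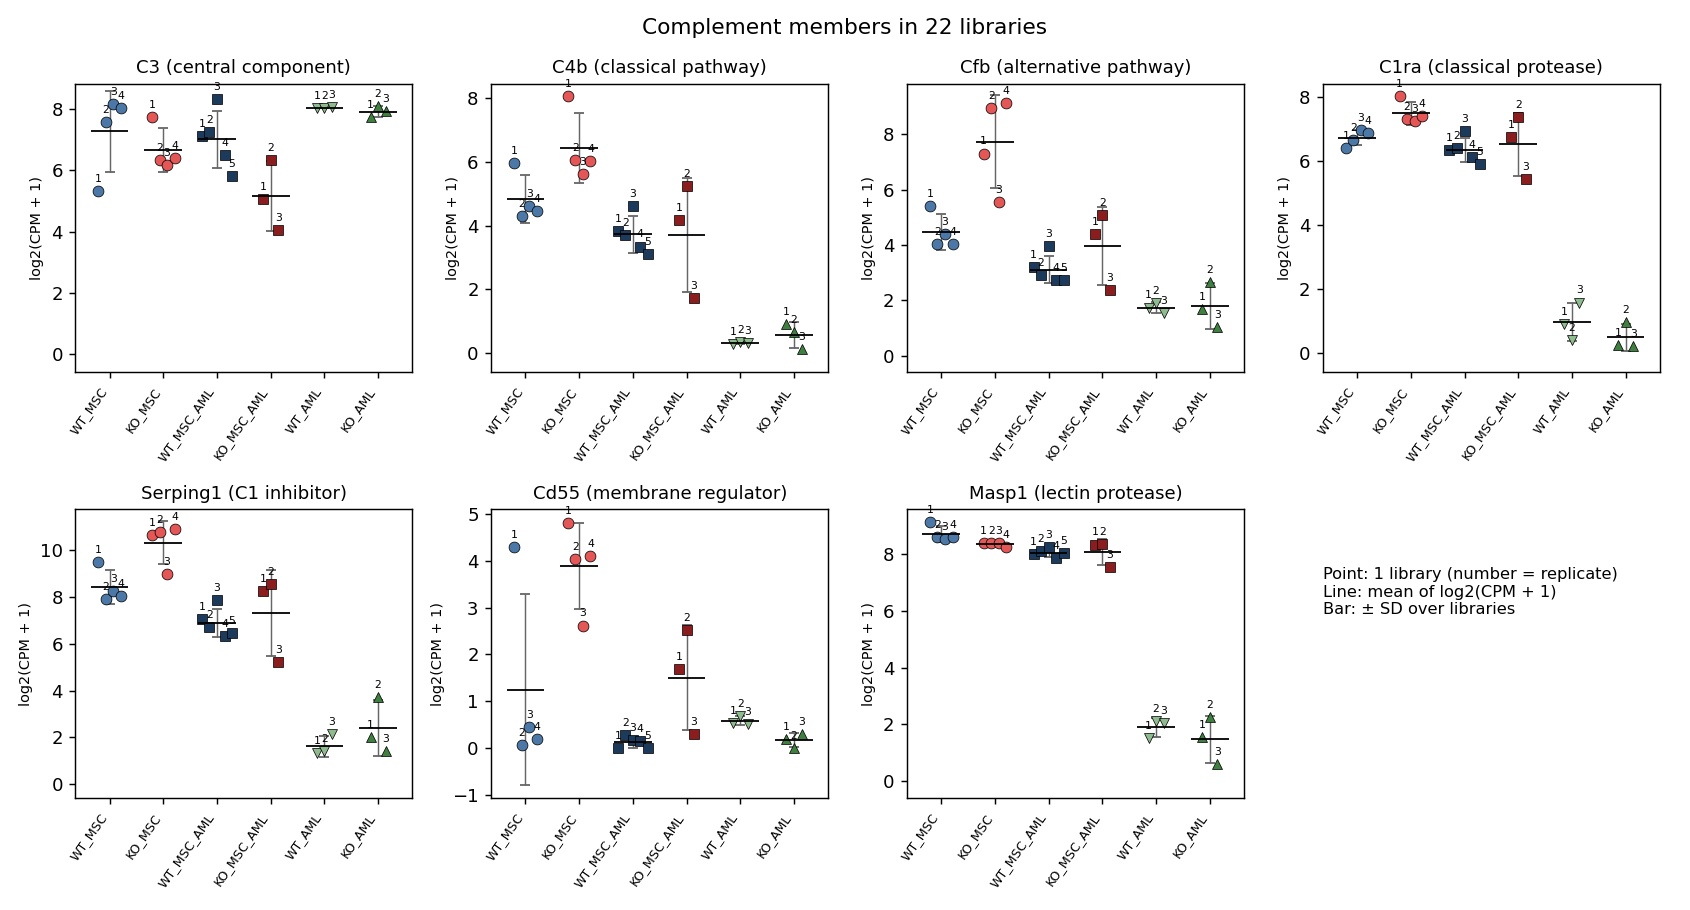
Level of each member in every library as log2(CPM + 1), by group. Points are libraries with their replicate number, lines are means and bars are the SD. C3 stands at 211 to 274 CPM in AML libraries, where each of the other 6 is at most 12.3 CPM, and replicate 3 is the lowest KO_MSC_AML library for all 7.

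The proteases that start the cascade were expressed in every MSC library. C1ra encodes C1r, the protease of the classical pathway that activates C1s (Entrez gene 50909; GRCm38 chromosome 6, 124512621 to 124523440, plus strand). In WT_MSC it stood at 85.4, 101, 126 and 118 CPM in replicates 1 to 4. In KO_MSC it stood at 261, 158, 153 and 169 CPM. The groups did not overlap, and KO_MSC replicate 1 was far above the other replicates (log2 fold change 0.80, given as a description). In co-culture C1ra was at 80.7, 83.9, 123, 70.0 and 59.7 CPM in WT_MSC_AML and at 108, 167 and 43.0 CPM in KO_MSC_AML. The groups overlapped: KO_MSC_AML replicate 3 lay below every wild type library, replicate 1 within their range and replicate 2 above it (log2 fold change 0.37, SE 0.40, edgeR adjusted p = 0.52). Without that replicate the difference was 0.75 (adjusted p = 0.048). Against the cultures alone, C1ra differed by -0.37 (adjusted p = 0.33) in wild type and by -0.82 (adjusted p = 0.29) in Lama4-/- MSC. AML libraries held 0.183 to 2.01 CPM.

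C1ra and its near-copy C1rb share 50.3% of the 75-base windows of their reading frame, the read length here, so reads can fit both genes and their counts are uncertain in part. C4b and C4a share 23.5% of such windows, and Cd55 and Cd55b share 21%. One stretch of each pair is shown, at the middle of the reading frame, because these bases decide whether a read can be placed; capitals mark the bases that differ (GENCODE vM21 transcripts, GRCm38, chromosomes 6, 17 and 1).
C1ra: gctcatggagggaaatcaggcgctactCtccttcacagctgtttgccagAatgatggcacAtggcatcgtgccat
C1rb: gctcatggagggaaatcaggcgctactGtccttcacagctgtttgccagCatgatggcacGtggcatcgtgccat
C4b: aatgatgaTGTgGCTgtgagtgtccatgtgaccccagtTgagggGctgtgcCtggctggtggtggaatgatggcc
C4a: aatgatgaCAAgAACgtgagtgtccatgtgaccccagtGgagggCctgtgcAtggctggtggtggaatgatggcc
Cd55: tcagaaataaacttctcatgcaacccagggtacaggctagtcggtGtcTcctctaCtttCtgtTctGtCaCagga
Cd55b: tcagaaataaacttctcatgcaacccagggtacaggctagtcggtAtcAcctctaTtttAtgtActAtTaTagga
The pairs differed at 3, 9 and 8 of the 75 bases. C1rb itself was at 22.04 to 35.7 CPM in WT_MSC and 41.8 to 73.9 CPM in KO_MSC, and C4a did not exceed 21.8 CPM in any library.

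Masp1 encodes a serine protease of the lectin pathway (Entrez gene 17174; chromosome 16, 23451785 to 23521240, minus strand). It stood at 562, 381, 369 and 381 CPM in WT_MSC and 335, 335, 329 and 305 CPM in KO_MSC. Every KO_MSC library lay below every WT_MSC library (log2 fold change -0.36, a description). WT_MSC_AML held 254, 276, 304, 229.8 and 259 CPM, below all 4 WT_MSC libraries. The test of that difference gave a log2 fold change of -0.69 (SE 0.15, adjusted p = 0.078). It passed without WT_MSC replicate 1 (-0.51, adjusted p = 0.017), without WT_MSC_AML replicate 3 (-0.74, adjusted p = 0.047) and in DESeq2 (adjusted p = 0.0017). KO_MSC_AML held 321, 325 and 183 CPM, which spanned the wild type co-cultures (0.08, SE 0.18, adjusted p = 0.76), and the difference from KO_MSC was -0.25 (adjusted p = 0.47). The other transcripts of that pathway were few: of 9 lectin pathway genes in the table, 7 stayed under 1 CPM in every library. Colec12, a scavenger receptor with a collectin domain, was the other one present, at 136 to 475 CPM in MSC.

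C4b encodes complement C4, which C1s cleaves to form the classical C3 convertase with C2 (Entrez gene 12268; chromosome 17, 34728139 to 34743902, minus strand). WT_MSC held 60.8, 18.6, 23.4 and 21.1 CPM, and KO_MSC held 265, 65.2, 47.9 and 64.2 CPM. In both groups replicate 1 was well above the rest, and KO_MSC replicate 3 lay below WT_MSC replicate 1 (log2 fold change 1.85, a description). Co-cultured wild type MSC held 13.4, 12.2, 23.4, 9.17 and 7.66 CPM. KO_MSC_AML held 17.1, 36.5 and 2.35 CPM, on both sides of the wild type range (0.53, SE 0.70, adjusted p = 0.60), and without replicate 3 the difference was 1.06 (adjusted p = 0.080). Co-culture against culture alone gave -1.25 in wild type (adjusted p = 0.19, and 0.048 in DESeq2) and -2.57 in Lama4-/- MSC (adjusted p = 0.17). In the fit over all 22 libraries the latter had an adjusted p of 0.032. AML libraries held 0.0915 to 0.877 CPM.

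C3, the component on which all pathways converge, was expressed by both cell types (Entrez gene 12266; chromosome 17, 57203967 to 57228136, minus strand). WT_MSC held 39.2, 190.1, 288 and 262 CPM, with replicate 1 lowest, unlike its position for C4b, Cfb, Serping1, Cd55 and Masp1, where it was highest. KO_MSC held 214, 80.7, 70.8 and 83.8 CPM, and the groups overlapped (log2 fold change -0.78, a description). In co-culture WT_MSC_AML held 139, 153, 323, 90.6 and 54.9 CPM, and KO_MSC_AML held 32.5, 80.9 and 15.7 CPM. Replicate 2 of KO_MSC_AML lay within the wild type range and the others below it (log2 fold change -1.80, SE 0.70, adjusted p = 0.088). DESeq2 gave an adjusted p of 0.042 and the fit over all 22 libraries 0.038, while without KO_MSC_AML replicate 3 the value was -1.40 (adjusted p = 0.14). C3 was the only member fitted there with a negative value. Co-culture against culture alone gave -0.36 (adjusted p = 0.76) in wild type and -1.39 (adjusted p = 0.23) in Lama4-/- MSC.

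AML cells held C3 at 260.4, 263 and 266 CPM in WT_AML and at 211, 274 and 242 CPM in KO_AML. The KO_AML libraries spanned the WT_AML ones (log2 fold change -0.10, SE 0.06, adjusted p = 0.92). WT_AML lay above 4 of the 5 WT_MSC_AML libraries (0.80, SE 0.43, adjusted p = 0.11), and without WT_MSC_AML replicate 3, the one above them, the difference was 1.27 (adjusted p = 0.0029). Transcripts of AML granule genes were also measured in the sorted MSC. Granule genes of the myeloid cells (Mpo, Elane, Ctsg, Prtn3, Ms4a3) were in WT_MSC_AML at 0.718% to 2.72% of their AML mean and in KO_MSC_AML at 0.459% to 2.00%. The same shares of the AML level of C3 are 1.16 to 6.87 CPM, against 15.7 to 323 CPM measured in these MSC.

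Promoter sequence was at hand for C3, C1ra and Cd55 (RefSeq, GRCm38.p6; the 250 bases before and 50 after the annotated start, at chr17:57228087-57228386 minus strand, chr6:124512371-124512670 plus strand and chr1:130462695-130462994 minus strand). The C3 and C1ra starts are the 5′ ends of their RefSeq gene intervals given above. The start used for Cd55 lies inside its RefSeq gene interval given below, not at its outer end, and its positions are counted from that start. The windows are shown because C3 was the member present in both cell types and Cd55 the one nearly absent from most libraries, with C1ra as an MSC transcript that AML cells nearly lack. Capitals mark matches to the motifs searched on both strands, which were chosen with these sequences and earlier results in view: the TATA box TATAAA, the C/EBP-like TTGCNNAA, the core of the interferon-stimulated response element, and the GC box with letters GGGCGG. Of 32851 promoters of this length, 13.6% held the first, 10.8% the C/EBP-like letters, 3.44% the response element and 35.7% the GC box.
C3: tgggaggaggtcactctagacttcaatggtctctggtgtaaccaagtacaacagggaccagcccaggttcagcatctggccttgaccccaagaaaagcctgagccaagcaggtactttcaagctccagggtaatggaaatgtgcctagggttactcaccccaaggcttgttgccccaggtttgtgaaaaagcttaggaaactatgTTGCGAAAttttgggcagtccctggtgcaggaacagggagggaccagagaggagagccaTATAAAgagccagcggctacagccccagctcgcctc
C1ra: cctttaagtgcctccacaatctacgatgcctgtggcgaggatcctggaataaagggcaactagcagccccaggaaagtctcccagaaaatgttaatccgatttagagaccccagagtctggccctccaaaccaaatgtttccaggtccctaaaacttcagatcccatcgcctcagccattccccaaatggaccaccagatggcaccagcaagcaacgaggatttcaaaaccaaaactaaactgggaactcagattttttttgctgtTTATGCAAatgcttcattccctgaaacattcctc
Cd55: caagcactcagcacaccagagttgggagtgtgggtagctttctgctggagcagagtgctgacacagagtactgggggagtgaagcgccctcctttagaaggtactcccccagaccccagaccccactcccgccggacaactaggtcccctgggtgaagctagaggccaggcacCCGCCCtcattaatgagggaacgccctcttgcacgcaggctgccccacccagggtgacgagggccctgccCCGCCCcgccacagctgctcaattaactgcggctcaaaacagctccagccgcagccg
The C3 window held a C/EBP-like match from position -45 and TATAAA from position 15, counted from the annotated start. The C1ra window held a C/EBP-like match from position 17 on the minus strand of the window, and the Cd55 window held GC boxes on that strand from positions -77 and -7. No match overlapped another. None of the windows held the core of the interferon-stimulated response element, which says only that its letters are not in them.

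Cfb encodes factor B, the serine protease that joins C3b to form the alternative pathway convertase (Entrez gene 14962; chromosome 17, 34856374 to 34862514, minus strand). It was chosen for its level in KO_MSC, so the values of cultures alone are a description. WT_MSC held 41.5, 15.4, 20.2 and 15.5 CPM, and KO_MSC held 157, 492, 46.0 and 561 CPM. All KO_MSC libraries lay above all WT_MSC libraries, but KO_MSC replicate 3 exceeded WT_MSC replicate 1 by little (log2 fold change 3.77 in all, and 4.96 over the 5 libraries with Ddx3y and without Xist, which are KO_MSC replicates 2 and 4 and WT_MSC replicates 2 to 4). KO_MSC replicates 2 and 4 were the highest of all 22 libraries.

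In co-culture Cfb was low in every MSC library. WT_MSC_AML held 8.13, 6.64, 14.5, 5.73 and 5.74 CPM, and KO_MSC_AML held 20.2, 32.9 and 4.19 CPM. Replicates 1 and 2 of KO_MSC_AML lay above, and replicate 3 below, every wild type co-culture (log2 fold change 1.26, SE 0.56, adjusted p = 0.12). Without replicate 3 the difference was 1.74 and passed (adjusted p = 0.0036). Against the same genotype alone the log2 fold change was -1.52 in wild type and -4.04 in Lama4-/- MSC, both descriptions. The KO_MSC_AML libraries had Xist and almost no Ddx3y. KO_MSC replicate 3, the only KO_MSC library like them in this, held Cfb at 46.0 CPM, and the part of sex-linked expression was not tested. No co-cultured library of either genotype reached the lowest library of its genotype alone. AML cells held 1.05 to 5.36 CPM, lower in WT_AML than in WT_MSC_AML (-1.78, SE 0.34, adjusted p = 0.00047), with no overlap between the groups, and without a difference that passed between AML groups (0.31, SE 0.48, adjusted p = 0.97).

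C2, which encodes the classical pathway counterpart of factor B, lies 87 bases from Cfb on the same strand, so reads at the border may be uncertain. In KO_MSC it did not follow its neighbour. Replicates 2 and 4, with Cfb at 492 and 561 CPM, held C2 at 9.13 and 8.32 CPM, replicate 3 held 15.7 CPM and replicate 1 held 80.6 CPM, against 32.9 to 44.5 CPM in WT_MSC. The ratio of Cfb to C2 was 53.9 and 67.4 in KO_MSC replicates 2 and 4, 1.95 and 2.92 in replicates 1 and 3, and 0.407 to 0.932 in WT_MSC. In co-culture it was 0.317 to 0.468 in WT_MSC_AML and 1.27 to 1.89 in KO_MSC_AML. Replicate 3 of KO_MSC_AML, low in both genes, had the lowest ratio of its group, above every WT_MSC_AML library. These ratios of counts are not per length, and no test was made of them.

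**Figure D3:**
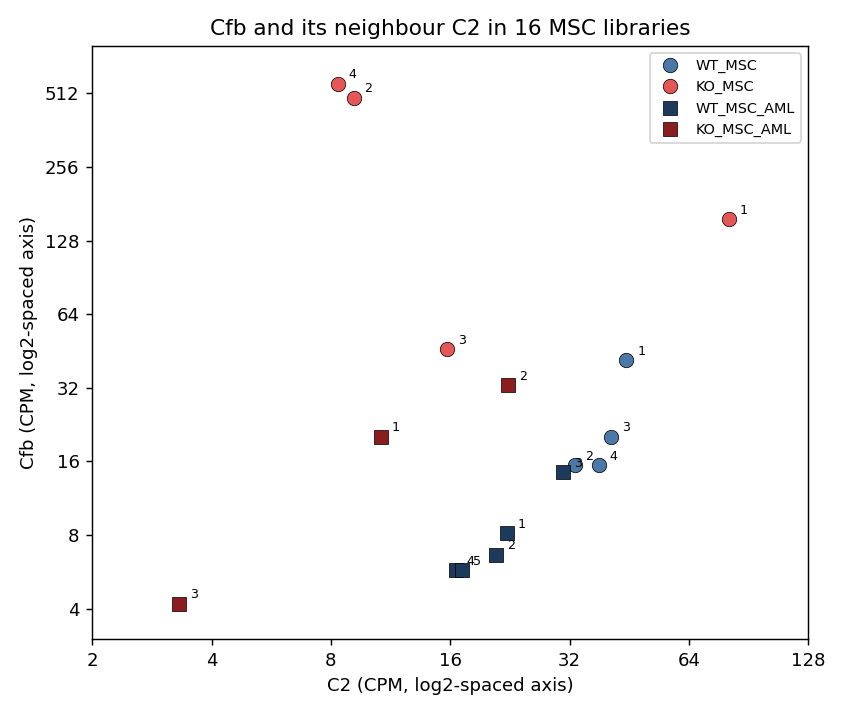
Cfb against C2 in the 16 MSC libraries, in CPM on log2-spaced axes, with replicate numbers. KO_MSC replicates 2 and 4 (Cfb 492 and 561 CPM) have less C2 than any WT_MSC library, and all 3 KO_MSC_AML libraries sit above the wild type co-cultures in Cfb relative to C2.

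Serping1 encodes C1 inhibitor, the serpin that blocks C1r, C1s and MASP proteases (Entrez gene 12258; chromosome 2, 84765360 to 84775444, minus strand). It had the highest level per length of the members in each MSC group, at 165 CPM per kb of exon in WT_MSC, 627 in KO_MSC, 55.1 in WT_MSC_AML and 102 in KO_MSC_AML. By library WT_MSC held 718, 239, 308 and 268 CPM, and KO_MSC held 1616, 1777, 504 and 1938 CPM. KO_MSC replicate 3 lay below WT_MSC replicate 1, and the other KO_MSC libraries above all of WT_MSC (log2 fold change 1.94, and 2.78 over the 5 libraries with Ddx3y alone, both descriptions). WT_MSC_AML held 131, 104, 237, 80.4 and 88.7 CPM, all below the WT_MSC libraries. That difference was -1.59 (SE 0.41, adjusted p = 0.14), and it passed in DESeq2 (adjusted p = 0.0020) and without WT_MSC_AML replicate 3 (-1.93, adjusted p = 0.036). KO_MSC_AML held 304, 372 and 36.3 CPM, all below the KO_MSC libraries (-2.62, SE 0.84, adjusted p = 0.12, and 0.023 in DESeq2). KO_MSC replicate 3, the only KO_MSC library like them in Xist and Ddx3y, was the nearest at 504 CPM. Between the co-cultures the difference was 0.91 (SE 0.65, adjusted p = 0.33), and without KO_MSC_AML replicate 3 it was 1.42 (adjusted p = 0.018).

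In both co-culture groups the library highest in most members was lowest in the proliferation genes (Mki67, Top2a, Mcm5, Ccna2, Bub1, Tpx2). This was not so in Lama4-/- MSC cultured alone. In WT_MSC_AML replicate 3 had the highest level of all members other than Cd55 and the lowest summed proliferation level, 309.5 CPM against 554 to 620 CPM. In KO_MSC_AML replicate 2 was highest for all 7 members and lowest for proliferation, at 105 CPM, and replicate 3 was lowest for all 7 members and highest for proliferation, at 225 CPM. In KO_MSC replicate 1 had the highest proliferation sum, 42.4 CPM against 22.05 to 38.7 CPM, and also the highest C3, C4b, C1ra, Cd55 and Masp1. In WT_MSC replicate 1 had the lowest sum and was lowest for C3 and C1ra and highest for the other 5 members. All 6 proliferation genes were lower in KO_MSC_AML than in WT_MSC_AML (median log2 fold change -1.60, against -0.01 over all genes tested). The part of proliferation in the members' levels was not tested.

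Cd55 encodes decay-accelerating factor, a membrane protein that takes C3 convertases apart (Entrez gene 13136; chromosome 1, 130429798 to 130465009, minus strand). It was present in 1 of the 4 WT_MSC libraries, at 18.8 CPM in replicate 1 and at 0.0435, 0.359 and 0.132 CPM in the others. KO_MSC held 27.3, 15.5, 5.14 and 16.3 CPM, so all but 1 wild type library lay far below them (log2 fold change 1.75, and 6.55 without WT_MSC replicate 1, both descriptions). In WT_MSC_AML it gave 8 counts over 5 libraries, from 0 to 0.213 CPM, against 371 counts in WT_MSC, most of them in replicate 1. The filter left that comparison untested too. Without the filter edgeR did not call it (-5.72, adjusted p = 0.24), and the fit over all 22 libraries did (-5.71, adjusted p = 0.029). KO_MSC_AML held 2.23, 4.72 and 0.221 CPM, 98 counts in all. Replicates 1 and 2 lay above the wild type libraries. Replicate 3, with 3 counts, was level with WT_MSC_AML replicate 2, with 4 counts (0.221 against 0.213 CPM). The ratio of summed counts, scaled by library size, was 28.3 (exact 95% interval 13.8 to 67.5, counting error only). The gene did not pass the filter on low counts in that comparison. Without the filter edgeR gave 4.70 and DESeq2 gave 4.80, both descriptions, since the counts come almost only from the Lama4-/- libraries. Without KO_MSC_AML replicate 3 edgeR gave 5.25, a description, since the gene then passed the filter only through the Lama4-/- libraries.

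Against culture alone Cd55 differed in Lama4-/- MSC by -2.75 (SE 0.87, adjusted p = 0.12, and 0.044 in DESeq2). All co-cultured libraries lay below all KO_MSC libraries. It passed the filter on low counts there only through KO_MSC, where it is high, so these p-values are no support for a fall. KO_MSC replicate 3, the only KO_MSC library like the co-cultures in Xist and Ddx3y, was the nearest at 5.14 CPM. In WT_AML Cd55 stood at 0.448, 0.615 and 0.422 CPM, above all WT_MSC_AML libraries (log2 fold change 2.44, SE 0.75, a description). It passed the filter on low counts there only through the AML libraries, so its call is not counted. The difference rests on 31 against 8 counts (ratio 5.72, exact 95% interval 2.57 to 14.4). The edgeR fit over all 22 libraries gave an adjusted p of 0.21. KO_AML held 0.135, 0 and 0.229 CPM, 7 counts in all, below the WT_AML libraries. The gene did not pass the filter on low counts in that comparison, and DESeq2 did not call it.

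The MSC members other than C3 were low in AML cells. Masp1 differed by -6.60 (SE 0.20, adjusted p = 9.3e-11) and Serping1 by -5.88 (SE 0.49, adjusted p = 8.8e-07). C1ra differed by -6.27 (SE 0.41) and C4b by -5.66 (SE 0.50), both descriptions, since they passed the filter only through the MSC libraries. WT_AML kept 1.05% to 1.95% of the WT_MSC_AML mean of these 4 genes, while the collagens Col1a1 and Col1a2, which mark MSC, were in WT_AML at 0.438% to 0.848% of that source. Cfb was at 28.9% of its MSC mean. The share of AML counts that came from MSC was not tested further. Between AML groups C1ra (-1.18), Serping1 (1.39) and Masp1 (-0.40) had adjusted p of at least 0.90, and C4b was not fitted. KO_AML replicate 2 was the highest of its group for C1ra, Serping1, Masp1, Cfb and C3, and it also had the most collagen of its group, at 0.6004% of the KO_MSC_AML mean.

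Per length, the order in WT_MSC was Serping1 at 165 CPM per kb, then Masp1 at 43.1, C3 at 37.9 and C1ra at 36.1, then Cfb at 8.19, C4b at 5.44 and Cd55 at 0.995. In KO_MSC Cfb moved to second place at 111 CPM per kb, followed by C1ra at 62.1, Masp1 at 33.1, C3 at 21.8, C4b at 19.4 and Cd55 at 3.31. In WT_MSC the means of Masp1, C3 and C1ra lay within the SD of C3, and those of Cfb and C4b within the SD of either. In KO_MSC Cfb and C1ra lay within the SD of Cfb, and Masp1, C3 and C4b within the SD of C3. In WT_AML C3 led at 51.2 CPM per kb and every other member was under 1 CPM per kb.

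The rest of the system was partly present. Of 60 complement genes examined, 22 reached a mean of 5 CPM in a group and 28 stayed under 1 CPM in every library. C1qa and C1qb, chains of the C1q recognition molecule, had 0 counts in all 22 libraries. Of 7 terminal genes none reached a mean of 5 CPM, and 6, all but C8g, stayed under 1 CPM in every library. C1s1, the protease C1r activates, was in KO_MSC at 482, 346, 342 and 361 CPM against 44.3 to 172 CPM in WT_MSC, a description. Cr1l, which encodes the rodent membrane regulator Crry, stood at 42.6 to 57.0 CPM in MSC and at 30.3 to 39.5 CPM in AML cells, lower in WT_AML than in WT_MSC_AML (-0.46, SE 0.10, adjusted p = 0.00086). C1qbp, a multifunctional protein first found by its binding to C1q, was at 49.6 to 106 CPM in MSC and 288 to 320.4 CPM in AML cells.

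Between co-cultures 2 of the 17 other complement genes tested were higher in Lama4-/- MSC and 2 lower, no larger a share than the 16.9% and 14.5% of all genes (median log2 fold change -0.40, against -0.01). C1s1 held 212, 361 and 91.3 CPM in KO_MSC_AML, above all of WT_MSC_AML at 21.1 to 60.9 CPM (2.64, SE 0.47, adjusted p = 0.0042). C1s2, its near-copy, rose at a low level (5.10 against 1.04 CPM on average; 2.31, adjusted p = 0.0035). Cfp, properdin, the stabiliser of the alternative convertase, was lower (2.85 against 5.86 CPM; -1.02, adjusted p = 0.026), as was Cd59a, which blocks the membrane attack complex (1.92 against 4.46 CPM; -1.19, adjusted p = 0.026). Cfp is higher in AML cells. The granule gene shares given above, taken of its AML level, are 0.574 to 2.17 CPM in WT_MSC_AML and 0.367 to 1.60 CPM in KO_MSC_AML. The part of AML transcript in the Cfp difference was not tested. Without KO_MSC_AML replicate 3, C1s1 and C1s2 stayed past the threshold, Clu, an extracellular chaperone that binds terminal complement, joined them (2.38, adjusted p = 0.017), and Cd59a no longer passed (adjusted p = 0.058). Over 13 alternatives C1s1 and C1s2 passed in 12, Cfp in 9, Cd59a in 6 and Clu in 3. C5ar1, the C5a receptor, was at under 1 CPM in every MSC library. Without that replicate it passed the filter on low counts only through the Lama4-/- libraries, so its call there is not counted.

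**Figure D4:**
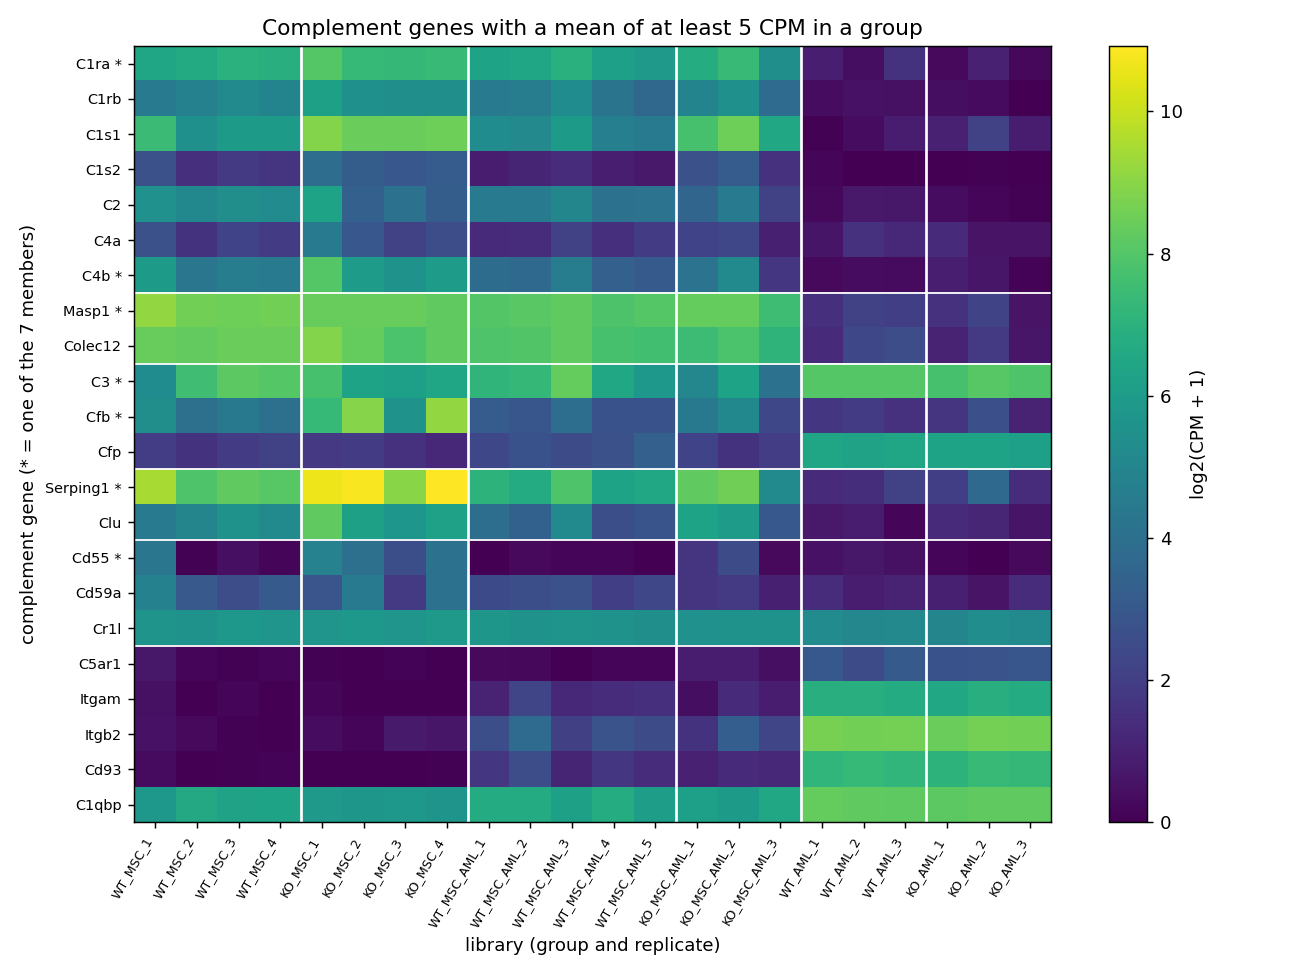
Level of the 22 complement genes with a mean of at least 5 CPM in a group, as log2(CPM + 1), in all 22 libraries. White lines part the groups and the classical, lectin, alternative, soluble regulator, membrane regulator and receptor genes from top to bottom. C3, Cr1l and C1qbp are seen in both cell types, Cfp, C5ar1, Itgam, Itgb2 and Cd93 are higher in AML libraries, and Cd55 is above 1 CPM in WT_MSC replicate 1, the 4 KO_MSC libraries and KO_MSC_AML replicates 1 and 2.

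Of the 18 other complement genes tested in WT_AML against WT_MSC_AML, 7 were higher and 10 lower in AML cells, where 39.1% and 42.9% of all genes were. These counts and shares include genes that passed the filter on low counts only through the group where they are high. C5ar1 did so through the AML libraries, and C2 and C1rb through the MSC libraries, so the differences of these genes are descriptions. Properdin and receptors were among the higher ones. Cfp was at 83.8 ± 5.31 CPM (SD, n = 3) against 5.86 ± 1.90 CPM (n = 5), a difference of 3.83 (adjusted p = 4.0e-09). Itgam and Itgb2, the chains of complement receptor 3, stood at 111 ± 4.38 and 399 ± 14.9 CPM in WT_AML (5.83, adjusted p = 2.4e-09, and 5.95, adjusted p = 4.2e-08). Cd93, a receptor first named for C1q, stood at 149.8 ± 8.16 CPM, and C5ar1 at 6.36 ± 1.57 CPM. Among the genes lower in AML cells were Colec12 (-6.11, adjusted p = 2.9e-08) and, as descriptions, C2 (-5.51) and C1rb (-5.86). In MSC, Itgb2 (4.98) and Cd93 (4.60) were higher in co-culture than alone in wild type cells, and Cd93 (5.72) in Lama4-/- cells, all descriptions. Both genes passed the filter on low counts there only through the co-cultured libraries, where they are high, so their calls are not counted. They reached 13.3 and 4.99 CPM at most, beside the AML granule genes given above, whose part was not tested. In wild type MSC neither passed the threshold without WT_MSC replicate 2 or without replicate 3. Cd93 in Lama4-/- MSC did not pass it without KO_MSC_AML replicate 3. For co-culture against culture alone, DESeq2 called 4 of 29 other complement genes higher and 4 lower in wild type MSC. In Lama4-/- MSC it called 4 of 28 higher and 4 lower. Of all genes it called 3.47% and 11.7%. None of the 14 other complement genes tested was called between AML groups by edgeR, 1 had an unadjusted p under 0.05, and DESeq2 called none of 33.

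Of 19 genes of the interferon-gamma, IL-6, IL-1, TNF and C/EBP routes known to induce complement transcription, 15 were tested between co-cultures, and 6 rose and 1 fell in Lama4-/- MSC (median log2 fold change 0.25), beside 16.9% and 14.5% of all genes. Il6st, the shared receptor chain of IL-6 cytokines, rose by 1.21 (SE 0.16, adjusted p = 0.00029), Cebpd, a C/EBP factor, by 1.02 (SE 0.18, adjusted p = 0.0021), and Ifngr2, a chain of the interferon-gamma receptor, by 0.77 (SE 0.11, adjusted p = 0.00068). Jak1, Irf1 and Nfkb1 were the others that rose, Irf1 in 8 and Nfkb1 in 7 of 13 alternatives, and Rela, an NF-kB subunit, fell by 0.54 on the log2 scale (SE 0.08, adjusted p = 0.0010). Only 4 rose without WT_MSC_AML replicate 1, without WT_MSC_AML replicate 4 or without KO_MSC_AML replicate 2. Of 6 acute phase genes tested, Cp, Ptx3 and Serpina3n rose (2.93, 2.54 and 1.94, adjusted p = 0.00032, 0.0011 and 0.032) and Lcn2 fell by 2.57 (adjusted p = 0.017), where 16.9% of all genes were higher and 14.5% lower. Serpina3n passed in 5 of 13 alternatives (highest adjusted p = 0.27) and Lcn2 in 11. None of the 15 inducers and 6 acute phase genes tested in WT_MSC_AML against WT_MSC was called by edgeR, 3 of each had an unadjusted p under 0.05, and DESeq2 called none of either. In KO_MSC_AML against KO_MSC edgeR called none of 16 inducers and none of 7 acute phase genes. There 7 inducers and 5 acute phase genes had an unadjusted p under 0.05. DESeq2 called 1 of 16 inducers and 3 of 9 acute phase genes lower and none higher, beside 11.7% of all genes.

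The genes most like a member over the 16 MSC libraries were found by the smallest root mean square difference of log2(CPM + 1) after each gene was centred on its own mean, among 10717 other genes with a mean of at least 5 CPM. This is a description, since all 16 share cell type and many share a group. For Cfb they were Epas1 (0.49), Apoe (0.66), Apod (0.68), Serping1 (0.69) and Fxyd1 (0.77), against an SD of Cfb itself of 2.03 on that scale. For Serping1 they were Abat (0.45), Adcy5 (0.51), Ism1 (0.52), Fxyd1 (0.52) and Epas1 (0.52), with an SD of 1.61. For C3 they were Ptprv (0.54), Cxcl12 (0.57), Fbln1 (0.62), Lhfpl4 (0.65) and Vit (0.67), with an SD of 1.17. Among the members the smallest differences were Masp1 with C1ra (0.55), Serping1 with C4b (0.58) and Serping1 with Cfb (0.69). The largest were Cd55 with C3 (2.31) and Cfb with C3 (2.28). The measure is not scaled by spread, so genes that vary little come out near each other whatever their direction. C1ra was higher and Masp1 lower in every KO_MSC library than in every WT_MSC library.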

How the data were processed

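Bulk RNA-seq libraries were made with SMART-Seq v4 and Nextera XT and read as 75-base single ends, per the labels' protocols. The deposited values are raw counts of reads per gene, per the file headers, made by the authors with STAR 2.6.1d and featureCounts, per the submitters' processing notes. Those notes name GRCm38/mm10, while the file header writes a human build name beside the mouse organism. For annotation version, strand setting and the sequencer of each library: not given in the sources used here. Antisense and near-identical genes are therefore uncertain.

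The 27179 genes include 1275 without a symbol. Each comparison was fitted on its own libraries with edgeR 4.0.16 (TMM, filterByExpr with a minimum count of 10, robust quasi-likelihood F-test, two-sided, Benjamini-Hochberg threshold 0.05 over all genes tested) and tested on simulated data first. Alternatives were RLE size factors, no filter, DESeq2 1.42.0, each library left out, a replicate block, 1 fit over all 22 libraries and, for MSC alone, only libraries with Ddx3y and without Xist. Intervals of count ratios cover counting error only. Libraries of a group differed by more than sampling noise (chi-square per degree of freedom at least 4.26).

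The members, lists and motifs were chosen with earlier results of these data known. Named were the 7 members, other complement genes with a mean of at least 5 CPM in a group, up to 3 each way with the smallest adjusted p per comparison, and the 5 genes most like C3, Cfb and Serping1. The inducer, acute phase and proliferation genes were named after their values were seen. A further gene of the complement list is not reported here and was left out of the counts of that list.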

Additional observations from a re-analysis of the deposited data

Results flagged for a closer look

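In groups of 4 or 5 libraries, the gap of the highest or lowest library to its nearest neighbour was set against the whole range of the group (Dixon's ratio). Chance gives about 1 group in 20 past the critical value; 16 of 56 groups were past it, and these genes and libraries are not independent.

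In KO_MSC the library apart was replicate 1, the highest, for C3 (ratio 0.909), C4b (0.920), C1ra (0.849), C1rb (0.948), C1s1 (0.863), C2 (0.897) and Clu (0.913). That library alone held both Xist, at 179 CPM, and Ddx3y, at 40.9 CPM. In WT_MSC it was again replicate 1, the highest, for C4b (0.887), Serping1 (0.854), Cd55 (0.983), Masp1 (0.936), C1s1 (0.870) and Cd59a (0.889). In WT_MSC_AML replicate 3 was the highest for Cfb (0.726), and replicate 2 for Itgam (0.719) and Itgb2 (0.730). Replicate 2 also had the most AML granule transcript, at 2.72% of the AML mean. The part of these values in the ratios was not tested.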

How the results depend on the processing

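Of 485 values of the members under alternatives, 455 kept their direction and side of the threshold (or, untested, moved by less than the spread), 16 newly passed, 1 no longer passed, 4 moved and 9 reversed. The reversed log2 fold changes in KO_MSC_AML against WT_MSC_AML were C4b (-0.18 with the replicate block, and -0.43 to 1.06 with 1 library left out, lowest without KO_MSC_AML replicate 2), C1ra (-0.13 to 0.75, lowest without replicate 2) and Masp1 (-0.026 with the block, and -0.058 to 0.31 with 1 left out, below 0 without KO_MSC_AML replicate 1 or 2). The others were C3 in WT_MSC_AML against WT_MSC (0.014 with the block), Cfb in KO_AML against WT_AML (-0.50 to 0.72, lowest without KO_AML replicate 2) and Masp1 there (-1.18 to 0.090, highest without KO_AML replicate 3). Cd55 in KO_MSC against WT_MSC was 4.15 with the block.

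Genes called in KO_MSC against WT_MSC were 1545, and 3189 in DESeq2, 3537 in the fit over 22 libraries, 270 with the block, 8178 over libraries with Ddx3y alone and 55 to 6242 with 1 library left out. KO_MSC_AML against WT_MSC_AML called 4306, 1157 with the block and 2958 to 4535 with 1 left out. WT_MSC_AML against WT_MSC called 100, 544 in DESeq2, 782 over 22 libraries, 27 with the block and 26 to 255 with 1 left out. KO_MSC_AML against KO_MSC called 100, 58 with RLE, 214 without the filter, 1781 in DESeq2, 1511 over 22 libraries, 103 with the block and 0 to 1324 with 1 left out. KO_AML against WT_AML called 6, 49 without the filter, 19 in DESeq2, 2 over 22 libraries, 58 with the block and 1 to 28 with 1 left out. WT_AML against WT_MSC_AML called 11594, and 11218 to 11763 with 1 left out. The cause was not tested. With the block, KO_MSC_AML against WT_MSC_AML called 0 of the other complement genes, 1 inducer higher and 1 lower, and 1 acute phase gene higher, and the co-culture comparisons in MSC called 0 of the other complement genes. Same-numbered libraries correlated in their deviations by -0.339 to 0.281, and libraries correlated best with their own number in 2 of 8 to 4 of 6 cases, so the numbers were not taken as pairs.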
